A study of Mus musculus with 14 samples.

Results

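CD4+ T cells with low surface PSGL1 were compared between the lung and the spleen of mice with chronic graft-versus-host disease (cGVHD), by bulk RNA sequencing of sorted cells. The comparison took the libraries titled cGVHD-Lu-PSGL1lo (2) and cGVHD-Sp-PSGL1lo (2), 4 of the 14 libraries of the series. All hosts were BALB/C mice given T-cell-depleted (TCD) bone marrow of B6 (strain C57BL/6) donors; the cGVHD hosts also received splenocytes, and the sorted cells were of donor origin. Organs were taken 30 days after the haematopoietic cell transplant. For reference, the report also uses the PSGL1hi cells of the same 2 organs (2 libraries each) and the liver PSGL1lo cells (2 libraries), all from cGVHD hosts. Neither the animals' age and sex nor whether replicate libraries stem from separate animals or from pools is given in the sources used here. The p-values therefore measure only the spread between these libraries, which may be technical.

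Lung and spleen libraries were also made in different series: the library numbers in the labels lie close together within each organ and far apart between spleen and lung. Tissue and library series therefore cannot be told apart in any lung-spleen difference below. A pair of other contrasts was read beside it. The lung-spleen change in PSGL1hi cells has the same confounding but shares no library with the PSGL1lo change, and a series effect that is alike in both fractions cancels in their difference. The contrast of lung with liver PSGL1lo cells lies within 1 library series, but shares the lung libraries.

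PSGL1, the product of Selplg, is a sialomucin on T cells that binds selectins and guides rolling on inflamed endothelium, and it also restrains T cell activation. Activated CD4+ T cells that lower PSGL1 include follicular helper cells, which use Bcl6, Cxcr5, Il21 and Cd40lg to help B cells. Cells of related function can act outside follicles in inflamed organs. T cells that stay in non-lymphoid organs keep integrins and chemokine receptors of the tissue and shut down the receptors of egress. In cGVHD, donor CD4+ T cells in organs such as the lung are linked to local antibody production and fibrosis.

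The libraries held 13283091 and 14905806 counts in spleen and 23568133 and 22417120 in lung. A gene with no read may still have had up to 3 counts, worth 0.196 to 0.223 CPM in spleen (CPM are counts on a shared scale of effective library size) and 0.127 to 0.134 CPM in lung; such limits cover counting error only. Of 25017 gene entries 13780 passed the filter on low counts. Histone genes (67 tested) and small RNA genes (189) were left out of all counts and names, because their share of the reads differed by library series: the histone share was 0.554% to 0.633% in spleen and 0.0804% to 0.0812% in lung, and the small RNA share 5.71% to 6.59% and 1.29% to 1.36%. That left 13524 genes.

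The sorted cells carried the genes of CD4+ T cells in both organs. Cd4 stood at 1630 and 1530 CPM in the spleen libraries and 2660 and 2600 in the lung libraries (log2 difference, lung less spleen, 0.73 ± 0.06 SE, adjusted p = 8.3e-10). Cd3e, a signalling chain of the T cell receptor complex, was at 293 and 285 CPM in spleen and at 1170 and 1200 in lung (log2 difference 2.03). Both lung libraries were above both spleen libraries for each gene. Of 17 genes of T cell identity, all tested, 13 were higher in lung, 3 lower and 1 did not pass, with a median log2 difference of 0.52 against 0.02 over all genes; 30.2% of all genes tested were called higher in lung and 29.4% lower. In bulk samples, fewer cells of a type and less RNA per cell cannot be told apart. Selplg, whose surface product was the sort marker, was at 281 and 238 CPM in spleen and 383 and 456 in lung (0.70 ± 0.09, adjusted p = 9.7e-07), so its transcript took a larger share of the RNA in lung than in spleen PSGL1lo cells.

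RNA of other cell types differed between the organs. The 27 tested myeloid markers summed to 372 and 364 CPM in spleen and to 1435 and 2138 in lung, against 193 and 89.8 in liver PSGL1lo cells. Lyz2, the lysozyme of macrophages, made up much of this: 21.9 and 19.9 CPM in spleen and 633 and 965 in lung. Chil3, a product of alveolar macrophages, was at 30.8 and 33.7 CPM in spleen and 399 and 569 in lung. Of the 27 markers 11 were higher in lung, 7 lower and 9 did not pass (median 0.13). Leaving out 1 library took the number lower from 7 to 3 (without lung replicate 1) or 4 (without lung replicate 2 or spleen replicate 2). Mrc1, Csf1r and the C1q chains C1qb and C1qc, found in many macrophages, were among those that did not pass. Macrophage genes were also among the lower ones: Adgre1 was at 32.5 and 28.5 CPM in spleen and 8.95 and 14.7 in lung (-1.37), C1qa at 30.7 and 29.4 against 18 and 23.6 (-0.53), and Marco, a scavenger receptor of alveolar macrophages among others, at 0.596 and 1.31 against 0.0848 and 0.179 (-2.83). The call was lost for C1qa by DESeq2 (-0.54, adjusted p = 0.25) and without lung replicate 1 or either spleen library (adjusted p = 0.079 to 0.23), and for Marco without lung replicate 1 (-2.38, adjusted p = 0.072) or spleen replicate 2 (-2.13, adjusted p = 0.13).

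Secretory products of airway and alveolar epithelium were detected in lung and at or near 0 in spleen, although the list as a whole was not low in spleen. The lung epithelium list also holds Hopx (called higher, 0.18), which is on the Th1 and cytotoxic list too. The surfactant gene Sftpc was at 0 CPM in both spleen libraries and at 1.78 and 1.88 CPM in lung. Scgb1a1, the secretory product of club cells, was at 1.99 CPM in lung replicate 1 and 78.6 in replicate 2, so the second lung library held much more of it, and 1 read was counted in the 2 spleen libraries together. The lung epithelium list summed to 132 and 228 CPM in lung and 126 and 132 in spleen, with 10 of 17 tested members higher in lung (6 without lung replicate 2, 5 by DESeq2 and 4 with the compared groups alone in the fit) and 2 lower, Napsa (-0.80) and Rtkn2 (-3.11). In the other direction, the erythroid and platelet list summed to 71.4 and 69.5 CPM in spleen and to 0.382 and 1.34 CPM in lung, and 6 of its 7 tested members were lower in lung. The 10 alpha and beta haemoglobin entries held 1 count in all over the 14 libraries, although other red cell genes were detected in spleen, so the sum holds no haemoglobin; how those reads were treated is not given in the sources. No median is given for these lists, since members at 0 have no measured fold. The part of these other cells in the differences described below was not tested.

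**Figure D1:**
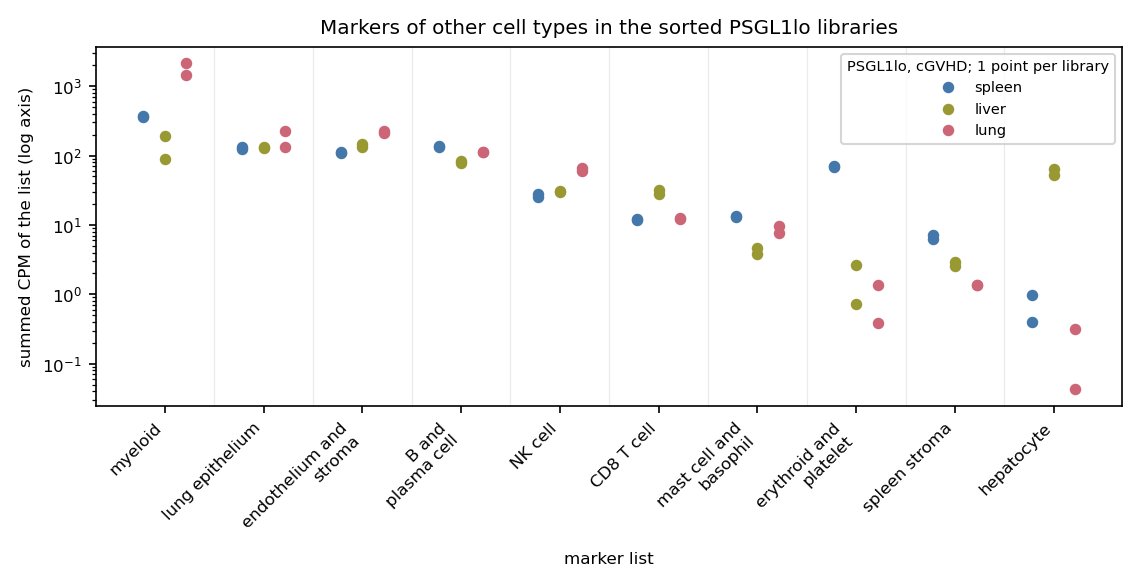
Summed level of each marker list of another cell type (CPM, log axis) in the spleen, liver and lung PSGL1lo libraries of cGVHD mice, 1 point per library. The myeloid list lies at 1435 and 2138 CPM in lung against 372 and 364 in spleen, the erythroid list at 71.4 and 69.5 in spleen against 0.382 and 1.34 in lung, and the hepatocyte list is raised in liver, at 64.1 and 52.1.

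Across all genes, 4081 were higher and 3975 lower in lung (59.6% of those tested), and 1724 were higher and 1607 lower by more than 1.5-fold (24.6%). The median log2 difference was 0.11 for the third of genes with the shortest transcripts and -0.08 for the third with the longest. In lung against spleen PSGL1hi cells it was -0.01 and 0.00, and in lung against liver PSGL1lo cells -0.01 and 0.03. The part of transcript length in the differences was not tested. Gene by gene, the most marked lung-high gene was Hspa1a, and several of the next were products of macrophages.

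**Figure D2:**
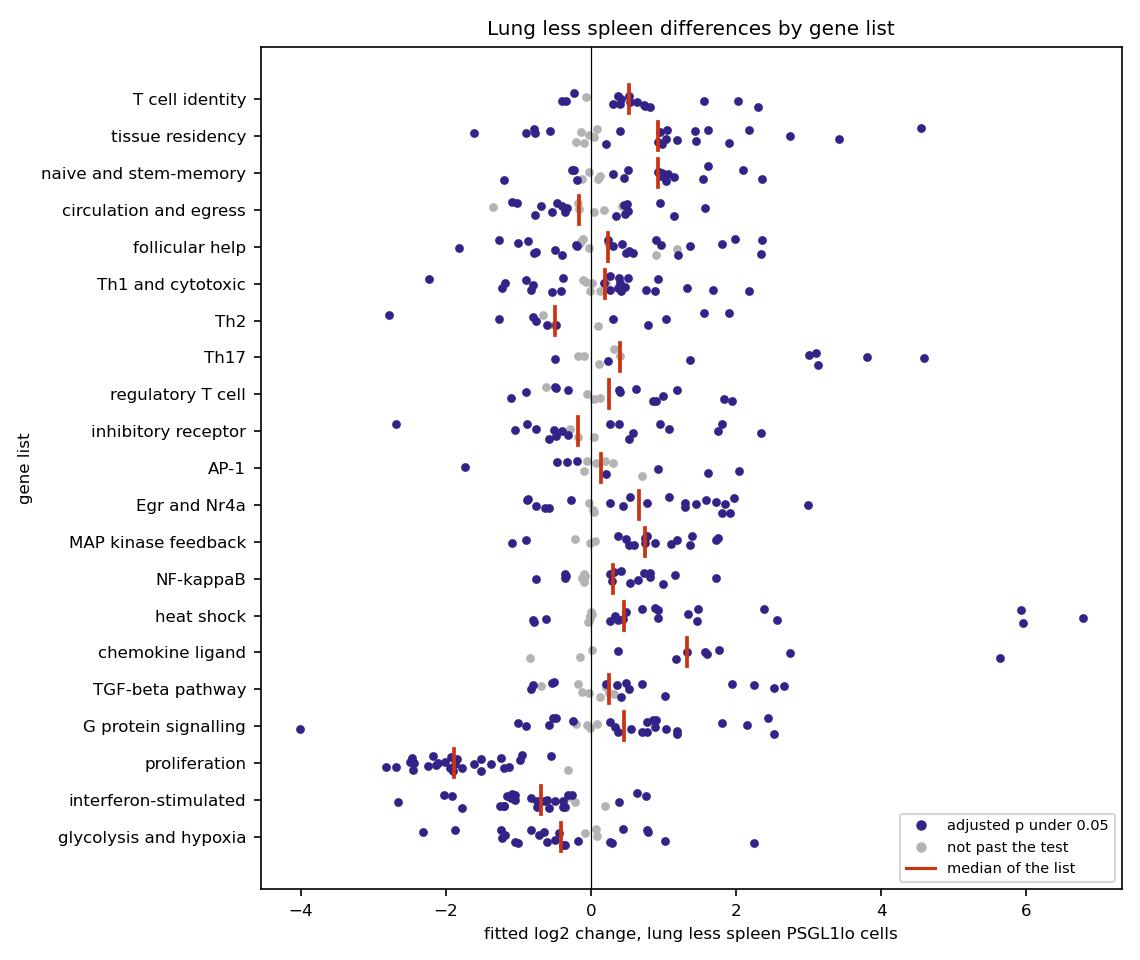
Fitted log2 difference, lung less spleen PSGL1lo cells, of each tested member of 21 gene lists (1 point per gene; dark points passed an adjusted p of 0.05, the red line is the list's median). Members of the proliferation list lie left of 0 throughout, and the heat shock list holds Hspa1a at 6.78 and Hspa1b at 5.96 beside Hspb1, whose position has no measured fold because it was at or under the limit of a 0 count in spleen.

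Tissue residency genes were mostly higher in lung, the integrins Itgae and Itga1 among them, while Cd69 and Cxcr6 did not pass. Of 29 listed genes 27 were tested; 16 were higher in lung, 5 lower and 6 did not pass (median 0.92). Runx3, a factor needed for residency, was at 57.4 and 60.2 CPM in spleen and 260 and 275 in lung (2.18 ± 0.08, adjusted p = 7.9e-16). The integrin chains of resident cells were higher too. Itga1, the collagen-binding alpha 1 chain, went from 14.1 and 17.3 CPM in spleen to 45.9 and 40.1 in lung (1.45). Itgae, the alpha E chain that binds E-cadherin, went from 11.8 and 12.6 to 31 and 34.8 CPM (1.43). Cdh1, E-cadherin itself, stood at 2.16 and 2.61 CPM in spleen and 50.9 and 62.2 in lung (4.55 ± 0.15, adjusted p = 3.5e-16). Epcam, another epithelial adhesion gene, did not pass (-0.25), but 10 of 17 tested genes of the lung epithelium list were higher and 2 lower. The part of epithelial RNA in the Cdh1 difference was not tested. Ccr8, a chemokine receptor of skin and lung T cells, was at 59.5 and 54.7 CPM in spleen and 226 and 201 in lung (1.90). Lung and spleen did not overlap for Runx3, Itga1, Itgae, Cdh1 or Ccr8. In liver PSGL1lo cells Itga1 was at 59.4 and 80.2 CPM, above the lung (lung less liver -0.69, adjusted p = 4.8e-05). Itgae was at 30.6 and 30.4 CPM there and did not pass (0.11, adjusted p = 0.37). Of the 27 genes, 16 were higher in lung than in liver and 7 lower.

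Cxcr6, the receptor for Cxcl16, was at 520 and 539 CPM in spleen and 551 and 493 in lung, and Cd69, which blocks egress by holding S1pr1 inside the cell, at 322 and 335 and at 262 and 309. Rgs1, a brake on chemokine receptor signalling, was at 726 and 775 CPM in spleen and 776 and 826 in lung. None of these passed the test (adjusted p = 0.83, 0.07 and 0.41). Cd69 was called lower with no filter on low counts (-0.20, adjusted p = 0.026) and without lung replicate 2 (-0.32, adjusted p = 0.017), among other settings. Prdm1, which encodes the residency factor Blimp1, was lower in lung, at 126 and 120 against 62.7 and 81 CPM (-0.77). P2rx7, a receptor for extracellular nucleotides, was also lower, at 468 and 458 against 261 and 280 CPM (-0.78).

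Genes of recirculation split evenly: of 23 listed and tested, 8 were higher in lung, 9 lower and 6 did not pass (median -0.16). S1pr1, the receptor that lets T cells leave tissue towards blood and lymph, did not pass, at 144 and 132 CPM in spleen and 143 and 171 in lung (adjusted p = 0.091), but was called higher without lung replicate 1 (0.32, adjusted p = 0.012). Klf2, the factor that drives S1pr1, was higher in lung, at 97 and 86.7 against 140 and 219 CPM (0.96 ± 0.14, adjusted p = 2.7e-06). S1pr4 was lower, at 177 and 157 against 75.5 and 89.6 CPM (-1.02).

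Genes of naive, memory and stem-like T cells were higher in lung. Of 23, all tested, 15 were higher, 4 lower and 4 did not pass (median 0.92). Without lung replicate 1 or spleen replicate 1, the number lower was 2. Tcf7, which encodes the stem-like factor TCF1, rose from 283 and 305 CPM in spleen to 1400 and 1620 in lung (2.36 ± 0.08, adjusted p = 2.9e-16). Its partner Lef1 stood at 83 and 75.8 CPM in spleen and 153 and 159 in lung (0.97). Bach2, a repressor that limits effector differentiation, was at 11.2 and 11.6 against 37.4 and 32.7 CPM (1.62), and Foxo1, which sustains Klf2 and Il7r, at 89.1 and 100 against 184 and 189 CPM (0.97). Il7r, the survival receptor of memory cells, was higher by less, at 365 and 382 against 522 and 545 CPM (0.51). Myb was the member furthest in the other direction, at 23.5 and 25.6 CPM in spleen and 8.73 and 12.7 in lung (-1.20).

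The follicular help list moved in both directions. Of 33 listed genes 31 were tested; 14 were higher in lung, 10 lower and 7 did not pass (median 0.24). Bcl6, the lineage repressor of follicular helper cells, was at 28.3 and 29.8 CPM in spleen and 126 and 104 in lung (1.98 ± 0.12, adjusted p = 5.3e-12). Tox2, which acts with Bcl6, was at 43.1 and 35.8 against 198 and 200 CPM (2.34), and Cd40lg, the contact signal to B cells, at 89.2 and 99.7 against 248 and 242 CPM (1.37). The receptor genes Cxcr5 and Pdcd1 were higher by less: 60.6 and 56.9 against 79 and 86.3 CPM for Cxcr5 (0.49), and 397 and 369 against 579 and 528 for Pdcd1 (0.53).

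The soluble helper signals were lower in lung. Il21, the cytokine that drives plasma cell formation, was at 246 and 247 CPM in spleen and 71.4 and 68.1 in lung (-1.82 ± 0.09, adjusted p = 2.9e-13). Il4 was at 10.1 and 13.4 against 5.81 and 3.93 CPM (-1.27). S1pr2, which retains cells in follicles, was at 34.6 and 32 against 17.4 and 15.6 CPM (-1.01), and Btla, an inhibitory receptor of follicular cells, at 180 and 177 against 113 and 99.5 CPM (-0.75). Icos, the costimulatory receptor for follicular help, was at 531 and 515 CPM in spleen and 526 and 497 in lung and did not pass (adjusted p = 0.74). The transcription factor genes Irf4 and Maf, also on the list, were lower in lung, by -0.87 and -0.49. Bcl6, Tox2 and Cd40lg were thus on the lung-high side and Il21, Il4, S1pr2, Irf4 and Maf on the spleen-high side, with no overlap of libraries for any of them.

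**Figure D3:**
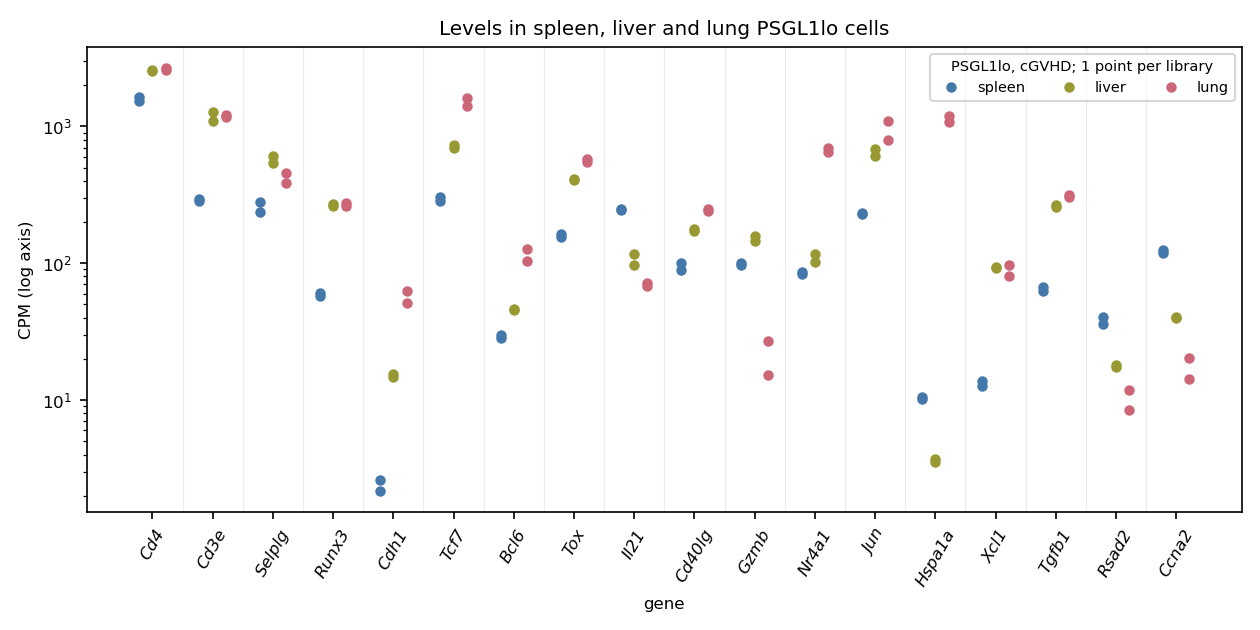
Level (CPM, log axis) of 18 genes in the spleen, liver and lung PSGL1lo libraries of cGVHD mice, 1 point per library. Hspa1a separates lung (1080 and 1190) from spleen and liver, Gzmb is lowest in lung (15.2 and 27.1), and Cd3e and Runx3 have liver and lung points at nearly the same height.

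Among Th1 and cytotoxic genes, 15 of 30 were higher in lung, 9 lower and 6 did not pass (median 0.20). Ifng, the main Th1 cytokine, was at 155 and 169 CPM in spleen and 285 and 314 in lung (0.88 ± 0.08, adjusted p = 2e-09). Its lineage factor Tbx21 did not pass, at 122 and 107 against 137 and 112 CPM (adjusted p = 0.34). Gzmb, the granzyme that triggers death of target cells, was at 101 and 97.4 CPM in spleen and 15.2 and 27.1 in lung (-2.23 ± 0.16, adjusted p = 1.1e-10). Gzma was also lower (-1.23), whereas Prf1, which forms the granzyme pore, did not pass, at 15.9 and 15.7 against 15.8 and 16.3 CPM. Fasl, a death ligand, was at 69.6 and 74.6 against 39.8 and 41.7 CPM (-0.82), and Il12rb1, a chain of the receptor for interleukin 12, at 160 and 143 against 65.7 and 67.7 CPM (-1.18). Ctsw, a protease of cytotoxic cells, was higher in lung, at 150 and 136 against 461 and 456 CPM (1.68).

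Type 2 genes moved in both directions. Of 15 listed genes 14 were tested, 5 higher in lung, 6 lower and 3 not past the test (median -0.49). Gata3, the lineage factor, was at 110 and 117 CPM in spleen and 351 and 319 in lung (1.56 ± 0.09, adjusted p = 1.9e-12). Areg, a tissue repair ligand of the epidermal growth factor receptor, was at 20 and 17.1 against 38.7 and 37.7 CPM (1.04). Il13 was at 11.2 and 14.8 CPM in spleen and 10.9 and 6.34 in lung; it was called lower (-0.60, adjusted p = 0.016), but not without lung replicate 2 (-0.26, adjusted p = 0.29) or spleen replicate 2 (-0.37, adjusted p = 0.25). Ptgdr2, a prostaglandin receptor of Th2 cells, was near the detection limit in lung, at 1.04 and 1.11 against 0.254 and 0.0447 CPM (-2.78).

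More Th17 genes were higher than lower in lung, and those that differed most were low in spleen. Of 16 listed genes 13 were tested, 7 higher, 1 lower and 5 not past the test (median 0.40). Il17a was at 0.149 and 0 CPM in spleen and 1.48 and 2.14 in lung; the spleen values are at or below the limit for a count of 0, so no fold is given (adjusted p = 9.5e-05). Ccr6, the receptor that marks Th17 cells, was at 7.67 and 7.65 against 17.3 and 22 CPM (1.36). The neighbouring pair Tmem176a and Tmem176b, common in Th17 cells, stood at 2.38 and 2.81 against 18.4 and 26.4 CPM and at 4.32 and 5.29 against 35.3 and 42.5 CPM (3.10 and 3.01). Il22 and Il23r did not pass (0.40 and -0.17).

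Of 18 regulatory T cell genes, 9 were higher in lung, 5 lower and 4 did not pass (median 0.26). Foxp3, the lineage factor, was low throughout, at 4.25 and 3.59 CPM in spleen and 7.08 and 7.5 in lung (0.90 ± 0.18, adjusted p = 0.00015). Ikzf2, often used as a marker of thymic regulatory cells, was lower in lung, at 237 and 243 against 137 and 121 CPM (-0.89). Il10, an anti-inflammatory cytokine, was at 28.3 and 30.1 against 12.9 and 14.3 CPM (-1.10). The growth factor receptor chain Il2ra was higher, at 46.7 and 54.8 against 112 and 90.6 CPM (1.0).

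The inhibitory receptor list also holds the factor genes Tox and Tox2 and the enzyme genes Nt5e and Entpd1. Of its 21 genes, 9 were higher, 9 lower and 3 not past the test (median -0.18). Tox, a factor of chronically stimulated T cells, was at 156 and 164 CPM in spleen and 579 and 546 in lung (1.81 ± 0.07, adjusted p = 1.4e-14). Lag3, a class II binding inhibitory receptor, was at 98.8 and 96.5 against 219 and 193 CPM (1.08), and Tigit, which competes for the same ligand as Cd226, at 184 and 184 against 355 and 358 CPM (0.95). Cd226, its activating counterpart, was lower in lung, at 409 and 412 against 193 and 195 CPM (-1.08). The Ig-like receptor Lilr4b, whose reads may be shared with a close copy, was at 134 and 139 against 76.1 and 72.3 CPM (-0.88).

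Receptor signalling targets and other genes listed with them were mostly higher in lung, with exceptions among the same families. The Egr and Nr4a list also holds Myc, Irf4 and Ier, Btg, Klf and Zfp36 genes, among others. Of its 24 genes, 15 were higher, 6 lower and 3 did not pass (median 0.66). Nr4a1, an orphan nuclear receptor that responds to antigen receptor signals, was at 86.2 and 83.7 CPM in spleen and 693 and 653 in lung (2.99 ± 0.10, adjusted p = 2.4e-16). Nr4a3 was at 78.4 and 75.1 against 321 and 217 CPM (1.81) and Egr1 at 121 and 120 against 259 and 400 CPM (1.45). Egr2 was lower, at 91.8 and 89.9 against 54.8 and 43.9 CPM (-0.88), and so was Egr3 (-0.63). Irf4 was also lower, at 121 and 115 against 72.5 and 56.3 CPM (-0.87). The RNA decay factors Zfp36, Zfp36l1 and Zfp36l2, which destabilise cytokine transcripts, were all higher, by 1.72, 1.97 and 1.92. Zfp36l2 reached 2020 and 2560 CPM in lung from 630 and 577 in spleen.

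AP-1 subunits did not move together. Of 14, 4 were higher in lung, 4 lower and 6 did not pass (median 0.14); without lung replicate 1 none was lower, and without spleen replicate 1, 1 was. Jun was at 229 and 232 CPM in spleen and 792 and 1100 in lung (2.04 ± 0.11, adjusted p = 1.1e-12). Fos did not pass, at 825 and 790 against 652 and 912 CPM (adjusted p = 0.72), with the lung libraries on either side of the spleen ones, and was called lower without lung replicate 2 (-0.30, adjusted p = 0.0063). Fosl2 was at 91.3 and 81.3 against 283 and 245 CPM (1.61). Genes of MAP kinase feedback (phosphatases and Spry and Spred inhibitors, with the Gadd45 genes and Rasgef1b, which are not inhibitors) were higher in 14 of 19 tested genes (20 listed), 2 were lower and 3 did not pass (median 0.74). Dusp4 was at 54.3 and 50.7 against 199 and 150 CPM (1.73) and Spry1 at 33.9 and 26.8 against 87.6 and 71.4 CPM (1.39), while Dusp6 was lower, at 186 and 173 against 85.8 and 106 CPM (-0.90). Of 20 NF-kappaB genes 12 were higher and 4 lower (median 0.30). Rel, the subunit of activated lymphocytes, was at 159 and 165 against 364 and 282 CPM (1.0).

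Heat shock chaperones held the largest lung-high difference among the well-expressed genes. These proteins refold damaged proteins, and their inducible members are switched on by heat shock factor 1 through short elements in the promoter. Of 26 genes, all tested, 17 were higher in lung, 3 lower and 6 did not pass (median 0.46). Hspa1a, an inducible Hsp70, was at 10.1 and 10.5 CPM in spleen and 1080 and 1190 in lung (6.78 ± 0.11, adjusted p = 1.6e-21). Hspa1b was at 26.1 and 23.5 against 1460 and 1630 CPM (5.96); the genes are near-identical copies, so reads may be shared between them. Hspb1, a small heat shock protein, was at 0.0745 and 0 CPM in spleen and 2.12 and 2.81 in lung, and is given without a fold. The cochaperone Dnajb1 was at 172 and 166 against 929 and 1060 CPM (2.56), Bag3 at 19 and 15.8 against 80.6 and 100 (2.38), and Hsp90ab1 at 1120 and 1240 against 3190 and 3320 (1.46). Hspa5, the chaperone of the endoplasmic reticulum, did not pass, at 1180 and 1240 against 1030 and 1320 CPM (adjusted p = 0.72), though it was called lower without lung replicate 2 (-0.22, adjusted p = 0.042), and the Hsp90 partner Chordc1 was lower (-0.78).

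The 250 bases before the start of Hspa1a (chr17:34972157-34972406, minus strand), Hspa1b (chr17:34959239-34959488, minus strand) and Hspb1 (chr5:135887669-135887918, plus strand) are printed because these genes separated the organs most among the chaperones. They are RefSeq windows of GRCm38.p6, read 5′ to 3′ towards the gene, with matches to GAANNTTC or TTCNNGAA, the core of the heat shock element, in capitals.
Hspa1a: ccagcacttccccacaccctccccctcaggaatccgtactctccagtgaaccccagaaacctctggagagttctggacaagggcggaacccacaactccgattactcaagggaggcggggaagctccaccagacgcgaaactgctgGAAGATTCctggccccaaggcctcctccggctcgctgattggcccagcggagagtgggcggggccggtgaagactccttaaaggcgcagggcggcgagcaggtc
Hspa1b: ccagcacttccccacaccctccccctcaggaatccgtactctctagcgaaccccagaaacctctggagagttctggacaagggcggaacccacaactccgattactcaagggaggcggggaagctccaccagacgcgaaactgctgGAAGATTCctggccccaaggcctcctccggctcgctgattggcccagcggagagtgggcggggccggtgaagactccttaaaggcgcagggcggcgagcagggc
Hspb1: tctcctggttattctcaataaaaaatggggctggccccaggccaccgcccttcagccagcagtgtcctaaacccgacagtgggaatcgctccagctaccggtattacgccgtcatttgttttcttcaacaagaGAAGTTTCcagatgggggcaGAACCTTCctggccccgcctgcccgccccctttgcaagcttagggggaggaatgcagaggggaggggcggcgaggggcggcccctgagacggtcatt
The first pair of windows differs at 3 of 250 bases and shares 1 match, which ends 97 bases before the start. Hspb1 holds 2 matches. The printed windows were taken from called members that hold a match. Of the 20 list members with a window, 8 held a match (40%), against 12.9% of the 27025 promoter windows of the table and 10.5% of those of tested genes. Of these 8, 4 were higher in lung (Hspa1a, Hspa1b, Hspb1 and Hsph1), Dnajb6 was lower (-0.62), and Dnaja1, Fkbp4 and Hspe1 did not pass. Both strands were searched; each of these letter patterns is its own reverse complement, and they can overlap each other. A match describes the letters only.

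Hspa1a was as high in the other lung fraction, at 1500 and 1340 CPM in lung PSGL1hi cells against 11.4 and 10.5 in spleen PSGL1hi cells, and the difference between the fractions did not pass (-0.24, adjusted p = 0.3). In liver PSGL1lo cells, which lie in the same library series as the lung, it was at 3.69 and 3.54 CPM. The lung libraries were thus above both the spleen and the liver libraries. In lung against liver, 18 of the 26 chaperone genes were higher and 1 lower (median 0.72), against 19.8% and 20.6% of all genes. Dnajb1 was higher there by 2.84 and Hsph1 by 1.85.

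Proliferation genes were lower in lung almost throughout. Of 28 cell cycle and replication genes, all tested, 27 were lower, none was higher, and E2f1 did not pass (median -1.89). Ccna2, the cyclin of S and G2 phase, was at 124 and 119 CPM in spleen and 14.2 and 20.2 in lung (-2.82 ± 0.14, adjusted p = 1.7e-13). Cdk1, the mitotic kinase, was at 43 and 44 against 9.2 and 11.2 CPM (-2.10), and Top2a, the topoisomerase that untangles chromosomes, at 517 and 527 against 128 and 143 (-1.94). Mki67, the antigen used to stain cycling cells, was lower by less, at 486 and 481 against 243 and 257 CPM (-0.95), and so was the replication helicase gene Mcm6, at 417 and 407 against 206 and 213 (-0.98). In lung against liver 27 of the 28 were lower (median -0.94), so the lung was also below the liver within 1 library series; Cdk1 was lower there by 1.28 on the log2 scale and Top2a by 0.45. Erythroid precursors also divide; their list, at 71.4 and 69.5 CPM in spleen, summed to 0.716 and 2.61 CPM in liver, and its part in the spleen level of these genes was not tested.

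The windows of Cdk1 (chr10:69352913-69353162, minus strand) and Top2a (chr11:99024190-99024439, minus strand) are printed in the same format. Capitals show the letters TTTGAA on either strand, the core of the element through which many cell cycle genes are repressed outside mitosis.
Cdk1: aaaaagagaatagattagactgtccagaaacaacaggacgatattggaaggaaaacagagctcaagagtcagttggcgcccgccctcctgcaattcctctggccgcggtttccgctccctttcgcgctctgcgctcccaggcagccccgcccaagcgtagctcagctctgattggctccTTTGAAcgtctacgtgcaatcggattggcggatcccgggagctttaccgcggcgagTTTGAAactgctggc
Top2a: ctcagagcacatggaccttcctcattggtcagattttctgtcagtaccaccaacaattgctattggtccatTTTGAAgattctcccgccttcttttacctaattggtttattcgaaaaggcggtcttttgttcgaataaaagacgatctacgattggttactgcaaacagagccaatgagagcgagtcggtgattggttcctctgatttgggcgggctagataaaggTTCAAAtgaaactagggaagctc
Each window held 2 matches. Both windows were taken from called members holding a match, so the choice fixed that each held a match. Ccna2, with a larger difference (-2.82), was not among the members holding a match. Of the 23 list members with a window, 7 held one (30.4%), against 16.3% of all windows and 10.9% of those of tested genes.

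Interferon-stimulated genes were lower in lung as well. Of 30, 24 were lower, 3 higher and 3 did not pass (median -0.69). Rsad2, the antiviral enzyme viperin, was at 35.9 and 40.3 CPM in spleen and 8.44 and 11.9 in lung (-1.91 ± 0.15, adjusted p = 6.3e-10). Ifit1, which binds foreign RNA caps, was at 68.5 and 64.1 against 29.1 and 28.7 CPM (-1.20), and the RNA sensor gene Ifih1 at 215 and 226 against 100 and 84.7 (-1.25). Zbp1, Isg20 and Xaf1 were the 3 higher members, by 0.64, 0.76 and 0.39. Against liver, 26 of the 30 were lower in lung and 1 higher (median -0.61). The windows of Rsad2 (chr12:26456453-26456702, minus strand) and Ifit1 (chr19:34640639-34640888, plus strand) show in capitals the letters GAAA, any 2 bases and GAAA again on either strand, the core of the interferon-stimulated response element.
Rsad2: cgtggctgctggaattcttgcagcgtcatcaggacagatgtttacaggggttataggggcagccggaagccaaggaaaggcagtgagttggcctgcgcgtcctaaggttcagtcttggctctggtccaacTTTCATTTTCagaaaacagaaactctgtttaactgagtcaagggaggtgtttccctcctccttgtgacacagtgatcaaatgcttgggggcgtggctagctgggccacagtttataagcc
Ifit1: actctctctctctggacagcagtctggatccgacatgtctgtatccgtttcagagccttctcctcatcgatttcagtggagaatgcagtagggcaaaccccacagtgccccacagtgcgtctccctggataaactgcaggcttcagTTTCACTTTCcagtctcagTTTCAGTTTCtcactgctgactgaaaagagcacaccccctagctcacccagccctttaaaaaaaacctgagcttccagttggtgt
Rsad2 held 1 match and Ifit1 held 2. Both windows were taken from called members holding a match, so the choice fixed that each held a match. Some members with larger differences were not among those holding a match. Of the 23 members with a window, 12 held one (52.2%), against 3.04% of all windows.

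**Figure D4:**
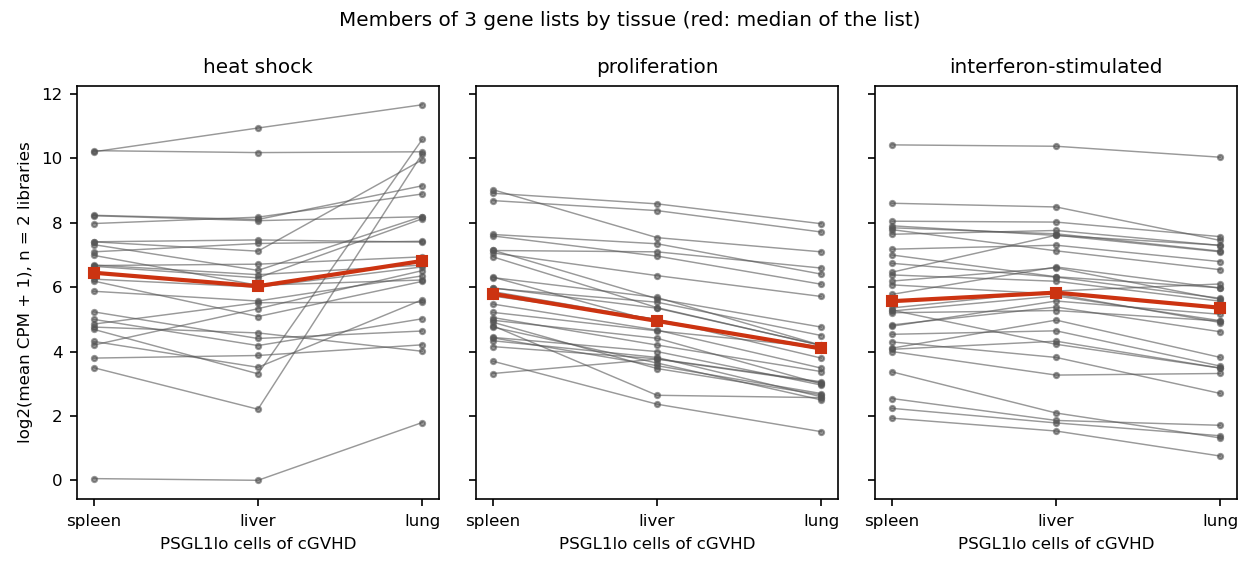
Mean level of each member of the heat shock, proliferation and interferon-stimulated lists in spleen, liver and lung PSGL1lo cells of cGVHD mice, as log2(CPM + 1) of the mean of 2 libraries (1 line per gene, red squares for the median of the list). Proliferation genes step down from spleen to liver to lung, and a few chaperones, Hspa1a among them, rise steeply from liver to lung.

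Chemokine ligands were higher in lung in 8 of 11 tested genes (12 listed), with none lower and 3 not past the test (median 1.32). Xcl1, which attracts cross-presenting dendritic cells, was at 12.7 and 13.8 CPM in spleen and 97.4 and 81 in lung (2.75 ± 0.16, adjusted p = 3.5e-12). Ccl1, the ligand of Ccr8, was at 12.5 and 14.4 against 46.1 and 35.5 CPM (1.60), and Ccl5, a chemokine of memory T cells, at 282 and 293 against 538 and 757 (1.17). Cxcl2, a neutrophil attractant of macrophages and epithelium, had the largest difference, at 0.596 and 0.85 against 32.4 and 41.1 CPM (5.64); it was at 0.179 CPM in liver, where the myeloid sum was also lower. Without lung replicate 2, 1 ligand was lower. Among 22 tested chemokine receptors (23 listed) 11 were higher and 4 lower (median 0.29). Cxcr4, the receptor for Cxcl12, was at 339 and 335 against 509 and 597 CPM (0.72). Cxcr3, the receptor of inflamed tissue, did not pass, at 510 and 458 against 439 and 481 CPM (adjusted p = 0.4), nor did Ccr2 (90 and 90.2 against 98.4 and 107, adjusted p = 0.098; 0.041 with no filter on low counts).

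Cytokine genes were mixed, 11 of 29 tested genes (30 listed) higher, 8 lower and 10 not past the test (median 0.20). Penk, which encodes the enkephalin precursor and is found in some activated and regulatory T cells, was at 64.1 and 65.1 CPM in spleen and 515 and 352 in lung (2.74 ± 0.14, adjusted p = 2.8e-13). Spp1, osteopontin, was at 20.6 and 19.3 against 153 and 162 CPM (2.99); macrophages also make it. Tnf was at 72.3 and 60.8 against 86.8 and 117 CPM (0.62), Csf2 at 8.86 and 7.06 against 18 and 16.3 (1.11), and Lta, lymphotoxin alpha, at 11.6 and 11.8 against 53.8 and 47.3 (2.11). Mif was lower in lung, at 25.1 and 27.8 against 9.62 and 11.9 CPM (-1.30).

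In the TGF-beta pathway, the growth factor route tied to fibrosis and residency, 11 of 23 genes were higher, 4 lower and 8 did not pass (median 0.25). The ligand gene Tgfb1 was at 66.7 and 62.4 CPM in spleen and 314 and 302 in lung (2.25 ± 0.08, adjusted p = 8.6e-16), and Ltbp3, which stores the latent ligand, at 1.56 and 0.98 against 6.95 and 7.64 (2.53). Of the receptors, Tgfbr2 was at 434 and 411 against 545 and 539 CPM (0.36) and Tgfbr1 at 86.6 and 90 against 51 and 48.6 (-0.82). The feedback targets Pmepa1 and Smad7 were higher, at 5.44 and 5.49 against 34 and 35.3 CPM (2.66) and 99.4 and 92 against 139 and 136 CPM (0.52). Smad3, a transducer, was lower, at 201 and 192 against 124 and 148 CPM (-0.53). Tgfb1 was at a mean of 262 CPM in liver, and lung less liver was 0.23 (adjusted p = 0.014; 0.19 and adjusted p = 0.12 without lung replicate 1).

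G protein regulators were higher in 17 of 28, lower in 7 and not past the test in 4 (median 0.46). Rgs16, which shortens chemokine receptor signals, was at 95.9 and 92.3 CPM in spleen and 568 and 450 in lung (2.44 ± 0.10, adjusted p = 1.4e-14), and Gnas, the stimulatory subunit of adenylyl cyclase signalling, at 405 and 357 against 1330 and 1350 (1.81). Gpr132, a receptor for lysolipids, was at 113 and 116 against 252 and 272 CPM (1.19). Among 26 integrin and adhesion genes 13 were higher and 9 lower (median 0.20). Itgb3 was at 201 and 194 against 82.4 and 81 CPM (-1.27) and Itga2, a collagen receptor chain, at 37.4 and 40.2 against 11.1 and 15.5 (-1.55). Itgax, an integrin chain of dendritic cells, macrophages and some T cells, was at 23.4 and 24.6 against 45.2 and 83.5 CPM (1.42) and at 1.94 in liver. It is itself on the myeloid list.

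Enzymes that build the selectin-binding sugars of PSGL1 did not move as a group: with Selplg, 5 of 15 were higher, 6 lower and 4 did not pass (median -0.12). Fut7, the fucosyltransferase that completes the selectin ligand, was at 4.25 and 5.23 CPM in spleen and 2.88 and 3.26 in lung (-0.63, adjusted p = 0.025), a call that was lost without lung replicate 1 (-0.53, adjusted p = 0.12) or spleen replicate 2 (-0.46, adjusted p = 0.21). Gcnt1, which starts the branched sugar chain, was at 22.8 and 26.6 against 14.2 and 13.9 CPM (-0.81), and St3gal6, a sialyltransferase, at 35.1 and 45.2 against 78.5 and 84 (1.01). Chst2, a sulfotransferase, was at 326 and 300 against 150 and 138 CPM (-1.12).

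Of 26 genes of glycolysis and hypoxia, 16 fell below spleen and 7 rose above it (median -0.41). The enzyme genes Pfkl and Tpi1 were at 138 and 129 against 54.7 and 58.5 CPM (-1.24) and at 156 and 153 against 73.2 and 76.9 CPM (-1.04). Slc16a3, the lactate exporter, was at 24.7 and 20.5 against 5.81 and 6.56 CPM (-1.87). Vegfa, a hypoxia-induced growth factor, was at 0.894 and 1.18 CPM in spleen and 5.81 and 4.15 in lung (2.25) and at 0.0211 in liver. Lipid uptake genes were higher in 8 of 16 tested (17 listed) and lower in 2 (median 0.42). Cd36, a fatty acid and scavenger receptor, was at 1.12 and 1.83 against 21 and 25.6 CPM (3.96), and Lpl, lipoprotein lipase, at 15.3 and 14.6 against 78.4 and 99.4 (2.58); alveolar macrophages also express both. Abca1 and Abcg1, which export cholesterol, were lower in lung, by 1.42 and 1.22 on the log2 scale.

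The 12 largest differences above spleen, among genes of at least 20 CPM in lung and above the limit of a 0 count in spleen, ran from 4.56 to 6.78 (log2). They included Hspa1a, Olr1, Mmp12, Cd14, Ppp2r2c, Hspa1b, Plet1, Il1a, Cxcl2, Lyz2 and Prrt1. Mmp12, macrophage elastase, was at 0.596 and 1.31 CPM in spleen and 70.8 and 104 in lung (6.48), and Cd14, the endotoxin coreceptor of monocytes, at 0.223 and 0.719 against 32.4 and 49.8 (6.38). In liver, Mmp12 was at 0.143 and 0.421 CPM and Cd14 at 0.0286 and 0.548. Cd14 is itself on the myeloid list. Ppp2r2c, a regulatory subunit of protein phosphatase 2A, was at 0.372 and 0.457 CPM in spleen and 30 and 30.6 in lung (6.16 ± 0.21, adjusted p = 5.8e-16), and at 15.2 in liver. Prrt1 was at 0.596 and 1.31 against 22.5 and 23.8 CPM (4.56), with 23.7 CPM in liver.

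The 12 largest differences below spleen, under the same rule, ran from -6.87 to -3.19. They were Slc40a1, Tbrg3, Car2, Iqcn, Ttn, Wdfy4, Ccnf, Plbd1, Kcnq1ot1, Gdap10, Esco2 and Knl1. Slc40a1, the iron exporter of red pulp macrophages, was at 25.9 and 31.1 CPM in spleen and 0.212 and 0.268 in lung (-6.87 ± 0.27, adjusted p = 6e-15). Car2, a carbonic anhydrase of red cells, was at 27.6 and 25.9 against 1.23 and 1.61 CPM (-4.23). Ttn, a giant muscle protein gene, was at 783 and 777 against 58.2 and 43.3 CPM (-3.94) and at 26.5 in liver, and the long noncoding RNA Kcnq1ot1 at 198 and 209 against 24.1 and 14.8 CPM (-3.39) and at 17.3 in liver. For both genes the liver and lung libraries, which share a library series, were all below the spleen libraries; Ttn was higher in lung than in liver (0.95, adjusted p = 3.9e-05), and Kcnq1ot1 did not pass (adjusted p = 0.43; 0.47 and adjusted p = 0.014 without lung replicate 2). Ccnf, Esco2 and Knl1 belong to cell division and had differences of -3.46, -3.31 and -3.19 on the log2 scale.

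Some genes were at or under the limit of a 0 count in 1 organ. Igfbp5, a growth factor binding protein of stromal and epithelial cells, was at 0 in both spleen libraries and at 7.84 and 23 CPM in lung, at least 73.4-fold higher against the limit of 3 counts per library. Cxcl1, a neutrophil attractant, was at 0 in spleen and at 8.73 and 13.6 CPM in lung, at least 53.3-fold higher. On the other side, Slc4a1, the anion exchanger of red cells, was at 39.9 and 39.6 CPM in spleen with 1 count in the 2 lung libraries together, a ratio of 1830 (95% counting interval 327 to 72200). Abca13, a large lipid transporter, was at 30.1 and 31.6 CPM in spleen, also with 1 count in lung (ratio 1420, 254 to 56100).

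The lung-spleen change was then set beside that in PSGL1hi cells. There 4223 genes were higher and 4081 lower in lung (61.4% of those tested). Of the genes higher in lung PSGL1lo cells, 3179 were also called higher in PSGL1hi cells (77.9% of the PSGL1lo calls and 75.3% of the PSGL1hi calls) and 68 were called lower. Of the genes lower in PSGL1lo cells, 3007 were also lower in PSGL1hi cells (75.6% and 73.7%) and 113 were higher. These contrasts share no library, but they share the 2 library series. Of the proliferation genes 27 of 28 were lower in lung PSGL1hi cells and 1 was higher (median -1.62), against 30.2% of all genes called lower.

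The change differed between the fractions at 2231 genes (16.5%): for 727 it was more positive in PSGL1lo cells (5.38%) and for 1504 more negative (11.1%). Without spleen PSGL1hi replicate 2 the number was 1471. Several gene groups rose by less in PSGL1lo cells. On the mixed Egr and Nr4a list 17 of 24 genes had a more negative change and 2 a more positive one (median of the difference -0.62, all genes -0.01). In the TGF-beta list 13 of 23 were more negative and none more positive (median -0.52), and in the tissue residency list 14 of 27 and 2 (median -0.36).

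Tcf7 rose in both fractions, from 56.9 and 56.7 CPM to 739 and 816 in PSGL1hi cells, and by less in PSGL1lo cells (difference of the log2 changes -1.41 ± 0.11, adjusted p = 5e-08); its spleen level was higher in PSGL1lo cells, at 283 and 305 CPM. Icos rose in PSGL1hi cells, from 330 and 320 to 786 and 764 CPM, and not in PSGL1lo cells (-1.29, adjusted p = 8.7e-08). Rgs1 also rose in PSGL1hi cells, from 655 and 821 to 1680 and 1550 CPM (-1.04, adjusted p = 1.4e-05). Prdm1 was lower in lung PSGL1lo cells and slightly higher in lung PSGL1hi cells, at 149 and 141 in spleen and 161 and 188 CPM in lung (-1.04, adjusted p = 1.6e-05).

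Other genes rose in lung PSGL1lo cells and did not in PSGL1hi cells. Penk was at 77.2 and 68.7 CPM in spleen PSGL1hi cells and 83.7 and 68.1 in lung PSGL1hi cells, so its change in PSGL1lo cells was larger by 2.69 ± 0.19 (adjusted p = 2.7e-08). In liver PSGL1lo cells Penk was at 389 and 356 CPM, and lung against liver did not pass (0.22, adjusted p = 0.17). Lad1, a basement membrane filament protein, was at 10.1 and 8.82 CPM in spleen and 47.1 and 30.3 in lung PSGL1lo cells, and at 4.63 and 4.24 and 3.29 and 2.98 in PSGL1hi cells (2.54, adjusted p = 2e-06). Cd109, a surface protein that binds TGF-beta, was at 15.5 and 16.4 against 41.6 and 30 CPM in PSGL1lo cells and at 23.7 and 24.6 against 7.65 and 7.68 in PSGL1hi cells (2.82, adjusted p = 1.8e-07). The directions of the Cd109 difference were opposite in the fractions, and both were called.

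**Figure D5:**
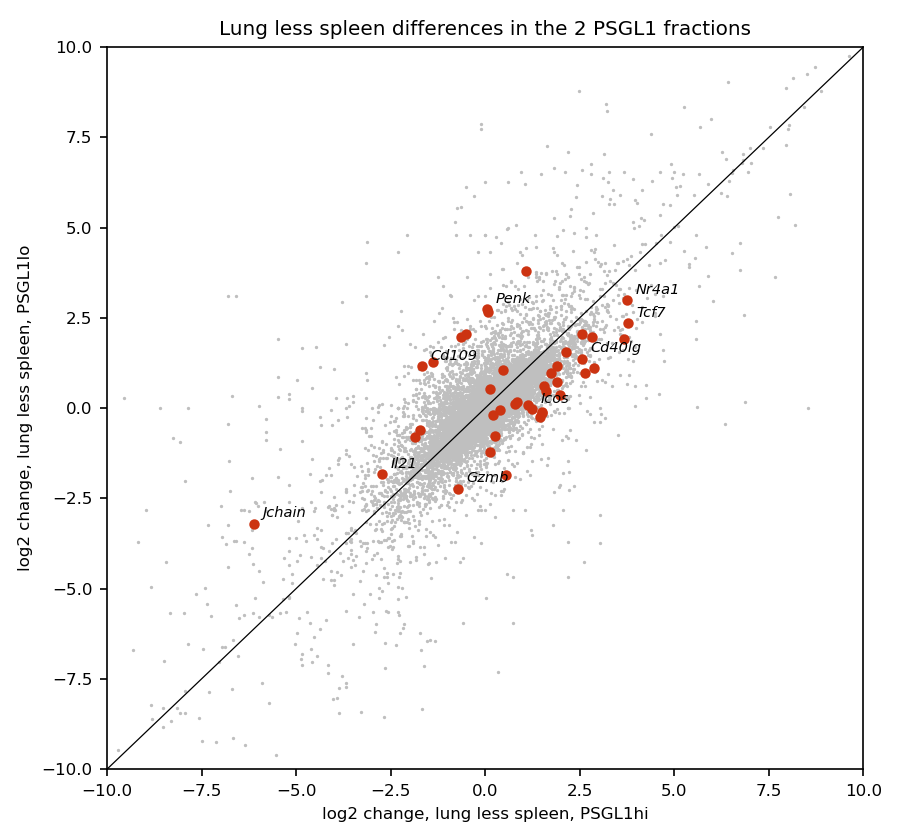
Fitted log2 change, lung less spleen, of each of 13524 genes in PSGL1lo cells (vertical) against that in PSGL1hi cells (horizontal); the line marks equal change, 10 genes lie outside the axes and red points are 41 named genes whose changes differed between the fractions. Penk lies above the line, at 2.74 against 0.06, and Icos and Gzmb lie below it.

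Read against liver PSGL1lo cells in the same library series, 2671 genes were higher and 2787 lower in lung (40.4%). Some genes that separated lung from spleen were level between lung and liver. Runx3 was at 271 and 262 CPM in liver (lung less liver 0.00, adjusted p = 0.98), Cd3e at a mean of 1190 (-0.01, adjusted p = 0.95) and Xcl1 at 94.5 and 92.3 (-0.07, adjusted p = 0.72). For these genes lung and liver could not be told apart beyond the spread of the libraries, and a tissue difference from spleen cannot be told apart from a library series difference.

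Other genes differed between lung and liver as well. Nr4a1 was at 102 and 116 CPM in liver (lung less liver 2.63, adjusted p = 7.4e-15), Tcf7 at 736 and 691 (1.08, adjusted p = 2.2e-10) and Bcl6 at 45.5 and 46.1 (1.33, adjusted p = 3.5e-09). For these 3 genes both lung libraries were above all spleen and liver libraries. Fosl2 was at a mean of 21.6 CPM in liver (3.62) and Cxcr4 at 127 and 122 (2.15), and the spleen libraries of both lay between liver and lung. S1pr1 was at a mean of 50.5 CPM in liver (1.64), with lung and spleen overlapping. Gzmb was at 157 and 146 CPM in liver (-2.84, adjusted p = 6.3e-12) and Ccl5 at a mean of 1660 (-1.36), so the lung was below the liver for both. Against liver, 16 of the 24 genes on the mixed Egr and Nr4a list were higher in lung and 6 lower (median 0.83). Of the 19 MAP kinase feedback genes 13 were higher and 2 lower (median 1.31).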

How the data were processed

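Per the labels' protocols, donor CD4+ T cells were sorted by PSGL1, their RNA purified on Qiagen RNeasy columns, and sequencing libraries built with Kapa mRNA HyperPrep reagents. The deposited table holds unnormalised read counts, 1 row for each gene, made by the authors with TopHat2 2.0.8 and HTSeq on mm9, per the submitters' processing notes; for the annotation, the strand setting and reads with several matches, nothing is given in the sources used here, so counts of overlapping, antisense or near-identical genes (Hspa1a and Hspa1b, Klr, H2 and Bcl2a1 genes, Lilr4b) are uncertain.

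In R 4.3.3, edgeR 4.0.16 gave the tests: filterByExpr, TMM scaling, 1 mean per group over all 14 libraries (7 residual degrees of freedom) and the quasi-likelihood F test. P-values were Benjamini-Hochberg adjusted over all 13780 genes and called under 0.05. A change past 1.5-fold was tested with glmTreat. Histone and small RNA genes stayed in the fit and were left out of counts and names. CPM are counts scaled to a common TMM-adjusted library size, and ± marks the standard error of a log2 difference (n = 2 libraries against 2). Counts of 13595 genes were simulated, with changes planted in 200 well-counted genes and the same spread for every gene. There 75% of 1.5-fold and 100% of 2-fold changes were recovered, and 5.91% of calls were false. In the data 59.6% of tested genes were called, some with few counts, so these rates do not carry over to the data.

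Named genes were the 12 largest differences in each direction, a core list, up to 5 called members per list, the 8 largest differences between fractions in each direction, genes at the limit of a 0 count, and detected markers of other cells; list members named beyond these were chosen after their values were seen. The members and lists were chosen with earlier results of these data known. The replicate numbers share no stated litter, batch or day, so no pairing was used. Promoter windows come from RefSeq (GRCm38.p6), which differs from mm9, so no mm9 coordinates are printed. DESeq2 1.42.0 and limma 3.58.1 were alternatives. Entries with date-like names (26) were kept and not named. Some genes that these rules select are in the fits and the list counts but are not reported here.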

Additional observations from a re-analysis of the deposited data

Results flagged for a closer look

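The lung-spleen change differed between PSGL1lo and PSGL1hi cells at 41 of the genes named, by the edgeR quasi-likelihood test of the difference itself (adjusted p under 0.05; 16.5% of all genes passed it). Of these, 25 were among 42 tested core genes, which were chosen with earlier results known, and 16 were named for having the largest differences, so that the choice fixed that they passed. For 28 genes the log2 change in PSGL1lo cells was the more negative and for 13 the more positive. The values below are the change in PSGL1lo cells less that in PSGL1hi cells, on the log2 scale, with no explanation.

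The PSGL1lo change was the more negative for effector and cytotoxic genes (Gzmb -1.52, Gzma -1.36, Prdm1 -1.04, Tnf -0.94, Ccl5 -0.73 and Tbx21 -0.66), for trafficking genes (Cxcr4 -1.18, Ccr7 -1.14, Rgs1 -1.04, Klf2 -0.78, S1pr1 -0.67 and Cd69 -0.40), for helper and lineage genes (Tcf7 -1.41, Icos -1.29, Cd40lg -1.19, Bcl6 -0.85 and Gata3 -0.57) and for immediate early genes (Nr4a1 -0.76, Jun -0.53 and Fos -0.43). It was also the more negative for Atp8a2 -2.40, Kdm6b -1.76, Neurl3 -1.75, Zc3h12a -1.70, St8sia1 -1.66, Jmy -1.63, Gramd3 -1.62 and Prag1 -1.61. It was the more positive for Pdcd1 0.40, Areg 0.57, Il21 0.91, Cd8a 1.07 and Il13 1.13, and for Lad1 2.54, Ksr2 2.56, Nrn1 2.60, Atp2b2 2.64, Penk 2.69, Nrgn 2.70, Cd109 2.82 and Jchain 2.92. Jchain, an immunoglobulin joining chain of plasma cells, was at 40.7 and 49 CPM in spleen PSGL1hi cells and at 3.2 and 5.23 in spleen PSGL1lo cells.

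Without 1 library some of these calls were lost. Fos lost its call in 6 of the 8 fits that left a library out, and Cd69 in 6; Jun and Areg in 4 each; Pdcd1 in 3; Gzma and Tbx21 in 2 each; and Ccl5 and Klf2 (both without spleen PSGL1hi replicate 2), Il13 (without lung PSGL1lo replicate 1) and Jchain (without lung PSGL1lo replicate 2) in 1 each. By the DESeq2 Wald test Gzma (adjusted p = 0.061), Fos (0.14) and Jun (0.059) lost theirs, and with the compared groups alone in the fit Fos did (0.091).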

How the results depend on the processing

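The counts of genes called in lung against spleen PSGL1lo cells (8056, and 3331 past 1.5-fold), lung against spleen PSGL1hi cells (8304) and lung against liver PSGL1lo cells (5458) stayed within 1.5 times under DESeq2 size factors, the DESeq2 Wald test, limma voom, no filter on low counts, a fit of the compared groups alone, the replicate block, the fit without histone and small RNA genes, and each fit that left out 1 library. The difference between the fractions (2231) did so except without spleen PSGL1hi replicate 2 (1471). Leaving out 1 library gave 6856 to 7154, 2706 to 2954, 7166 to 7501, 4198 to 5866 and 1471 to 1987 calls in that order; the remaining library of a group was then assumed to vary like the other groups. The replicate block gave 7984 calls in lung against spleen PSGL1lo; replicate differences of those groups correlated at 0.01, so the numbers show no pairing. Lung against liver calls were fewest with the compared groups alone, at 3760 against 5458. Calls past 1.5-fold in lung against spleen PSGL1lo were fewest by the DESeq2 Wald test, at 2341 against 3331. Lung epithelium genes called higher numbered 5 by DESeq2 and 4 with the compared groups alone, against 10.

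Of the values of named genes under these settings, 3157 kept direction and call, 62 lost the call, 16 gained it and 30 changed sign; all 30 were small differences that did not pass under the reported setting, nor under the one that changed the sign. Leaving out 1 library, those with both signs in lung against spleen were Cxcr6 (-0.09 to 0.06), Icos (-0.06 to 0.02), Tbx21 (-0.02 to 0.26), Fos (-0.30 to 0.19), Cxcr3 (-0.14 to 0.01), Prag1 (-0.35 to 0.18), C1qb (-0.24 to 0.28), C1qc (-0.42 to 0.03), Hspa5 (-0.22 to 0.13), Il22 (-0.43 to 1.03), Dnaja1 (-0.08 to 0.08), Hspe1 (-0.12 to 0.20), Fkbp4 (-0.12 to 0.13; 0.00 with no filter and with the compared groups alone) and Mrc1 (-0.31 to 0.30; -0.02 by limma voom). In lung against liver they were Cd3e (-0.11 to 0.10; 0.01 with DESeq2 size factors and by the DESeq2 Wald test), Runx3 (-0.04 to 0.04), Kcnq1ot1 (-0.24 to 0.47) and Xcl1 (-0.22 to 0.06). Scgb1a1 lost its call by limma voom (adjusted p = 0.27, and 4.8e-145 to 0.27 over all settings) and Sftpc by the DESeq2 Wald test (adjusted p = 0.27, and 3.7e-08 to 0.27). The cause was not tested.

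Each group had 2 libraries, so the spread rests on the 14 libraries together. Tissue cannot be told apart from library series. For genes at or under 3 counts in a group, a fold is given only as a bound or as a ratio with its counting interval.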

Other observations

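Integrated stress response genes moved in both directions in lung against spleen PSGL1lo cells. Of 20 tested genes (22 listed), 8 were higher in lung, 6 lower and 6 did not pass (median log2 difference -0.04, against 0.02 over all genes). The transcription factor genes Atf4, Atf5, Cebpb and Ddit3 were higher, by 0.90, 1.25, 0.75 and 0.78. The serine and asparagine synthesis genes Phgdh, Psat1 and Asns, which are targets of Atf4, were lower, by -0.84, -0.83 and -0.71. Of the amino acid transporters Slc3a2 (0.87) and Slc1a5 (0.30) were higher, and Slc38a2 (-0.56) and Slc7a6 (-0.26, a call lost without any 1 of the 4 libraries) lower. Slc7a11, the cystine importer, was at 1.12 and 2.03 CPM in spleen and 7.08 and 10.8 in lung (2.48) and at 0.0211 in liver, in lung libraries with a raised myeloid sum. Of 25 tested sterol and fatty acid synthesis genes (26 listed), 8 were higher and 7 lower (median 0.08): the regulator Srebf2 was higher, by 0.97, and the fatty acid synthase gene Fasn was lower, at 290 and 242 against 134 and 131 CPM (-1.0).

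The Bcl-2 family list holds both genes that promote survival and genes that promote death. Of its 17 tested genes (18 listed), 5 were higher, 6 lower and 6 not past the test (median -0.12). Mcl1, a survival factor of activated T cells, was at 856 and 859 CPM in spleen and 483 and 515 in lung (-0.78 ± 0.07, adjusted p = 1.9e-09). The death effector genes Bax and Bak1 were higher, by 0.53 and 0.56. Without 1 library the number lower was 2 or 3 (without lung replicate 2, spleen replicate 1 or spleen replicate 2).

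Of 12 class II genes, 6 were lower and 4 higher (median -0.49; 2 higher without lung replicate 2). Ciita, their transactivator, was at 27 and 27.1 CPM in spleen and 4.11 and 4.42 in lung (-2.67), and H2-Eb2 at 8.49 and 9.15 against 0.339 and 0.0447 (-5.46). Cd74, the invariant chain, was higher, at 344 and 305 against 379 and 526 CPM (0.48), but not called without lung replicate 2 (0.23, adjusted p = 0.075). Among natural killer cell genes, Klri2 was at 1.04 and 0.98 against 20.6 and 17.6 CPM (4.23), while Klrb1c did not pass (-0.18). Klrb1a was at 0.223 and 0.131 against 5.47 and 4.47 CPM. Its spleen values are at or below the limit for a count of 0, so no fold is given. Of 8 tested genes of this list (12 listed) 5 were higher and none lower (median 1.2). Without lung replicate 2 the number was 3.

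Of 84 tested cytosolic ribosomal protein genes (87 listed) 27 were higher and 32 lower (median -0.08), and of 75 tested oxidative phosphorylation genes (80 listed) 30 were higher and 20 lower (median 0.15; 13 lower without lung replicate 1 or spleen replicate 2). Of 25 tested TNF family genes (26 listed) 12 were higher and 6 lower (median 0.31), and Tnfsf4, a costimulatory ligand, was at 4.32 and 3.92 against 16.5 and 12.7 CPM (1.83). Of 30 cytokine receptor genes 10 were higher and 10 lower (median 0.10), with Il2rg, the common gamma chain, at 468 and 447 against 1000 and 1040 CPM (1.16). Of the remaining marker lists, endothelium and stroma had 8 of 15 tested genes higher in lung (5 without lung replicate 2) and 1 lower, B and plasma cell 1 of 12 higher and 3 lower, CD8 T cell 1 of 2 higher (Cd8b1, 0.37, a call lost by DESeq2, by limma voom and under other settings, adjusted p = 0.056 to 0.23) and 1 lower (Cd8a, -0.79), spleen stroma 2 of 3 lower, mast cell and basophil 2 of 4 lower, hepatocyte 1 of 10 lower, and NKT and gamma delta T cell 1 of 4 higher.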
